A study of Mus musculus with 2 samples.

Results

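The glucocorticoid response was followed in 9 genes through the cell types of mouse skin. They are the receptor gene *Nr3c1*, the activating enzyme gene *Hsd11b1*, and the induced genes *Fkbp5*, *Tsc22d3*, *Zbtb16*, *Klf9*, *Sgk1*, *Cebpd* and *Glul*, 9 of the 19046 non-mitochondrial genes counted. They were chosen by name, with their measured knockout over wildtype values in these same libraries already known, so that every ratio given for them is a description and not a test.

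The cells came from 6 mm punches of dorsal skin, with no treatment, of 1 wildtype C57BL/6J mouse and 1 knockout mouse of the plakin gene *Eppk1* (*Eppk1*-/-, a line crossed back to C57BL/6J). Age, sex and hour of collection are not given in the sources used here. The skin was digested with enzymes, the cells were fixed, and RNA was counted with pairs of probes (10x Genomics Fixed RNA Profiling), in which each ligated pair carries a unique molecular identifier (UMI). Each genotype was thus represented by 1 library of 1 mouse, no spread between mice could be measured, and no test between genotypes was made.

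After filtering, 8875 wildtype and 8617 *Eppk1*-/- cells were kept, with 60433943 and 52561917 UMIs and medians of 4963 and 5006 UMIs per cell. For each class and library the UMIs of all cells were added up and scaled to counts per 1000000 UMIs (CPM). In such sums, fewer cells with an RNA and less RNA per cell cannot be told apart. A class sum also changes where the shares of its clusters differ between the libraries. Intervals are exact at the 95% level and cover counting error only. Ratios are log2 of *Eppk1*-/- CPM over wildtype CPM; a gene was called lower or higher at a ratio of 0.5 in size, and needed 50 UMIs over both libraries for a ratio. Levels are compared between cell types for the same gene, never between genes, since the number of probes per gene sets its count. In keratinocytes *Eppk1* itself was counted at 2999 CPM (wildtype) against 795 CPM (*Eppk1*-/-), a log2 ratio of -1.92. Whether its probes lie in the deleted part is not given in the sources used here.

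Cells were clustered without these genes, and clusters were named from marker genes; each name means that the cells resemble that type. Keratinocytes numbered 5504 and 4059 (wildtype and *Eppk1*-/-), fibroblasts 1845 and 2801, myeloid cells 932 and 1218, T and NK cells 224 and 199, sebaceous cells 154 and 133, and endothelial cells 106 and 60. The T and NK class, called after its marker list, held only the *Icos* and *Trac* T cells and the *Trdc* T cells. No cluster was named for NK cells alone. Many clusters are called by some of their leading genes, and such a name does not mean that markers of a stage were few. The *Lce1a2* and *Lce1b* cells had 7 markers of the latest keratinocytes among their 10 leading genes. Of the keratinocyte clusters, the *Krt24* and *Lgr5* cells and the *Sncg* and *Fgf18* cells carried markers of the follicle bulge and germ. The *Wfdc21* and *Serpina12* cells held RNA of 8 of 8 granular markers, although none of these was among their 10 leading genes. The only listed stage marker among those 10 was *Krt77*, a spinous one. The endothelial cells were a mixed cluster that shrank to 35 and 23 cells at a finer resolution and was not found without integration of the libraries.

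Glucocorticoids are steroid hormones of the adrenal cortex, and skin also makes and activates them locally. They cross the membrane and bind the glucocorticoid receptor, which waits in the cytoplasm in a complex of chaperones, moves to the nucleus, and binds DNA at an imperfect palindrome of hexamers separated by a short spacer, from which it induces genes; it also restrains inflammatory genes through other factors. In skin the hormone thins the epidermis, slows the cycle of the hair follicle and dampens immune cells. *Fkbp5* encodes a co-chaperone that lowers the receptor's affinity for hormone and so closes a feedback loop, which is why its RNA is widely used as a readout of receptor activity.

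Since the members respond to a factor that binds DNA, the 250 bases before each annotated start were searched for its motif (RefSeq, GRCm38.p6). Of the 9 genes, 6 matched the table, with 13 start sites (not *Zbtb16*, *Cebpd* or *Nr3c1*). Both strands were searched for the single hexamer TGTTCT, which was present in 16.1% of all 32851 windows of this length, and for a loose form of the palindrome, GNACANNNTGTNC, present in 0.387%; the hexamer can overlap the palindrome. Shown are a start of *Sgk1* that holds the palindrome, the start of *Tsc22d3* that holds a hexamer, and the start of *Fkbp5*, which holds neither in this window. Capitals mark the matched letters.
Sgk1, chr10:21993640-21993889, plus strand: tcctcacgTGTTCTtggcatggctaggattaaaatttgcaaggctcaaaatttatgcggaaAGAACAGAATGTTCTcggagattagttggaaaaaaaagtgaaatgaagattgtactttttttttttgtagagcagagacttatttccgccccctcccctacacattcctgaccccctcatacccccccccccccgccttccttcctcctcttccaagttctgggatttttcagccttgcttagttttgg
Tsc22d3, chrX:140600523-140600772, minus strand: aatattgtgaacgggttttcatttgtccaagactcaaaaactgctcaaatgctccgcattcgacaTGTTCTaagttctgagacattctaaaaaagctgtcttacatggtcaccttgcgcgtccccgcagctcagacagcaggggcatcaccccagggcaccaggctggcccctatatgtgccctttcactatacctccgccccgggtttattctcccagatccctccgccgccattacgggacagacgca
Fkbp5, chr17:28486150-28486399, minus strand: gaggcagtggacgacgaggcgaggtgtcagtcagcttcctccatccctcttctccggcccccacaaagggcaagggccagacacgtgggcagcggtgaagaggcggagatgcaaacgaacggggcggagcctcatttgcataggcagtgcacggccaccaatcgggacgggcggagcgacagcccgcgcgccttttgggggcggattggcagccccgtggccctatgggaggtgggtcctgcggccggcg
The palindrome was found in 1 of the 13 windows, at position -188 from the start of *Sgk1* shown, where hexamers of both strands overlap it. A hexamer was found in 4 windows, 3 of *Sgk1* and 1 of *Tsc22d3* (position -185). The single windows of *Glul*, *Klf9* and *Hsd11b1* held neither. These matches are descriptions of letters, and their absence says nothing of sites elsewhere.

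*Nr3c1* encodes the receptor itself (chromosome 18, 39410545 to 39519421, GRCm38). Its level was highest in T and NK cells, at 471 CPM (interval 414 to 535) in wildtype cells and 445 CPM (383 to 514) in *Eppk1*-/- cells. Endothelial cells followed with 204 and 191 CPM. Sebaceous cells (132 and 125 CPM), fibroblasts (127 and 162 CPM), myeloid cells (117 and 121 CPM) and keratinocytes (93.8 and 85.0 CPM) lay close together, and the wildtype intervals of sebaceous cells, fibroblasts and myeloid cells overlapped. In none of the 6 classes did the ratio reach the size rule. It was 0.35 in fibroblasts (interval 0.27 to 0.44), -0.14 in keratinocytes, and between -0.09 and 0.05 in the other classes. With clusters weighted by their wildtype shares the keratinocyte ratio was -0.03. Receptor RNA was thus present in every class of both libraries.

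Within classes *Nr3c1* was positive in all 4 fibroblast groups, from 0.16 in *Cpz* and *Pla2g5* cells to 0.59 in *Angpt4* and *Myoc* cells (111 against 167 CPM). Among T cells it was higher in the *Icos* and *Trac* cluster (730 and 582 CPM) than in the *Trdc* cluster (177 and 173 CPM). Among keratinocyte clusters with 50 UMIs the wildtype level ran from 42.3 CPM in *Wfdc21* and *Serpina12* cells to 482 CPM in *Krt75* and *Krt6a* cells, a cluster of only 62 and 12 cells. It was called lower in *Sncg* and *Fgf18* cells (250 against 171 CPM, ratio -0.54). In the *Krt75* and *Krt6a* cells the ratio was 0.58, from 206 and 35 UMIs, and -0.05 without the droplet barcodes present in both libraries.

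*Hsd11b1* encodes the enzyme of the endoplasmic reticulum that turns inactive keto-steroids back into active hormone (chromosome 1, 193221634 to 193264075). Its RNA was counted mostly in fibroblasts. Wildtype fibroblasts stood at 76.7 CPM (72.2 to 81.4) and *Eppk1*-/- fibroblasts at 29.9 CPM (27.4 to 32.5), a ratio of -1.36 (-1.51 to -1.21). No other class reached 50 UMIs. Keratinocytes held 23 and 4 UMIs (0.629 and 0.161 CPM), myeloid cells 29 and 10 (4.14 and 1.54 CPM) and sebaceous cells 5 and 2 (3.58 and 1.08 CPM). The classes with few UMIs in all stood higher by CPM, with wide intervals. T and NK cells held 7 and 6 UMIs (13.8 and 14.4 CPM). Endothelial cells held 9 and 3 UMIs, at 35.3 CPM (16.1 to 67.0) and 12.2 CPM (2.51 to 35.6). Basal keratinocytes held 0 UMIs in both libraries, which allows at most 0.511 and 0.699 CPM by the upper Poisson bound.

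The difference was unequal among the fibroblast groups. *Pla1a* and *Efhd1* cells went from 125 CPM (116 to 134) to 32.8 CPM (29.1 to 36.8), a ratio of -1.93. *Tnmd* and *Masp1* cells went from 39.4 to 7.72 CPM (ratio -2.33) and *Cpz* and *Pla2g5* cells from 37.2 to 10.7 CPM (ratio -1.78). In *Angpt4* and *Myoc* cells, in contrast, the values were 55.1 CPM (46.1 to 65.4) and 61.1 CPM (53.1 to 70.0), with a ratio of 0.15 and an interval from -0.17 to 0.47 that holds no change. The wildtype and *Eppk1*-/- intervals were apart in 3 of the 4 groups and overlapped in the *Angpt4* and *Myoc* cells. Cells of at least 2000 UMIs were also thinned to 2000 UMIs by a random draw, and cells with fewer were left out. Values after thinning are thus from a deeper set of cells. The share of *Pla1a* and *Efhd1* cells with an *Hsd11b1* UMI was then 20.1% of 548 wildtype cells and 6.16% of 1121 *Eppk1*-/- cells. Unthinned and over all cells it was 48.5% and 16.6%, at median depths of 9582 and 7115 UMIs. In keratinocytes, which hold almost none of this RNA, the thinned shares were 0.0811% and 0.0562%.

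**Figure D1:**
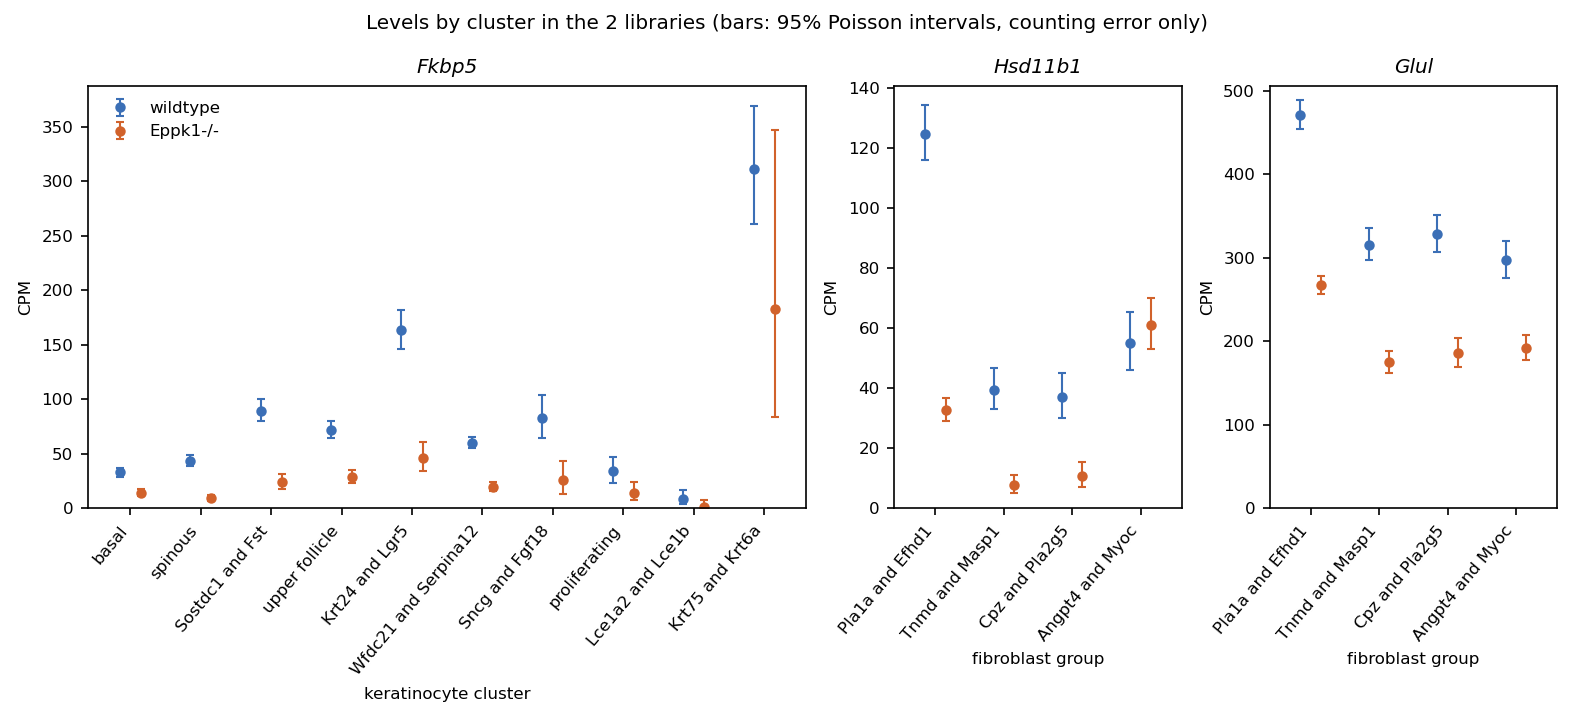
Levels (CPM, linear axes from 0) of *Fkbp5* in the 10 keratinocyte clusters and of *Hsd11b1* and *Glul* in the 4 fibroblast groups, for the wildtype (blue) and the *Eppk1*-/- library (orange); bars are 95% Poisson intervals, which cover counting error only. *Fkbp5* is lower in each keratinocyte cluster, with overlapping intervals in the small *Krt75* and *Krt6a* and *Lce1a2* and *Lce1b* clusters and in proliferating cells; *Hsd11b1* is lower in all groups but the *Angpt4* and *Myoc* cells, and *Glul* is lower in all 4.

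*Fkbp5* (chromosome 17, 28399094 to 28517527) was lower in all 6 classes, but by very different amounts. In keratinocytes it stood at 63.3 CPM (60.7 to 65.9) in wildtype cells and at 18.4 CPM (16.8 to 20.2) in *Eppk1*-/- cells, a ratio of -1.78 (-1.93 to -1.63). In T and NK cells the levels were 84.8 and 40.9 CPM (ratio -1.03, from 43 and 17 UMIs), in endothelial cells 157 and 52.8 CPM (-1.53, from 40 and 13 UMIs), and in myeloid cells 155 and 95.3 CPM (-0.70; -0.40 after thinning and -0.36 without integration). The differences in fibroblasts (63.5 and 49.9 CPM, -0.35) and sebaceous cells (840 and 671 CPM, -0.32) stayed within the size rule. Of the 4 fibroblast groups 1 was called lower, the *Cpz* and *Pla2g5* cells (-0.87), while *Angpt4* and *Myoc* cells stood at 0.01. Of the 4 myeloid clusters 2 were called lower, with ratios from -0.43 in *Fcna* and *Lyve1* macrophages to -1.45 in *Il1b* and *Ccr2* cells. In the latter 27.1% of all genes were lower. Sebaceous cells held by far the most *Fkbp5* RNA, and the *Eppk1*-/- sebaceous cells held more than any other class of either library. When sebaceous cells were counted as keratinocytes, the keratinocyte ratio became -0.53.

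The lower *Fkbp5* level of keratinocytes was found in every stage that could be measured. All 8 keratinocyte clusters with 50 UMIs were called lower, and in 7 of the 8 the interval lay below 0. Basal cells went from 33.0 to 14.4 CPM (ratio -1.19) and spinous cells from 43.8 to 9.34 CPM (-2.22). In the follicle, upper follicle cells went from 72.2 to 28.6 CPM (-1.33), *Krt24* and *Lgr5* cells from 163 to 46.1 CPM (-1.81) and *Sncg* and *Fgf18* cells from 82.6 to 25.6 CPM (-1.65). *Wfdc21* and *Serpina12* cells, the most deeply counted cluster (medians of 22802 and 22824 UMIs), went from 60.3 to 19.7 CPM (-1.60). The exception was the *Krt75* and *Krt6a* cluster, with 311 CPM (261 to 369) and 183 CPM (83.6 to 347), whose *Eppk1*-/- value rests on 9 UMIs.

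Shares of cells were taken too. After thinning to 2000 UMIs, 10.7% of 4935 wildtype keratinocytes (Clopper-Pearson interval 9.89 to 11.6%) and 3.54% of 3559 *Eppk1*-/- keratinocytes (2.96 to 4.20%) held an *Fkbp5* UMI, against 24.1% and 8.75% unthinned. Spinous cells showed 8.39% and 1.53%, and *Krt24* and *Lgr5* cells 24.3% and 7.30%. The *Lce1a2* and *Lce1b* cells, the wildtype cluster with the lowest share, showed 2.00% of 50 and 2.70% of 37 cells. These are too few cells to set a background share, so whether the 1.53% of *Eppk1*-/- spinous cells lies above background was not settled. Those spinous cells held 57 *Fkbp5* UMIs in all, and 5.17% of them held such a UMI unthinned. In *Wfdc21* and *Serpina12* cells the thinned shares, 7.47% of 388 and 6.94% of 216 cells, stood closer than the CPM values, which use all UMIs; unthinned they were 57.2% and 25.8%.

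**Figure D2:**
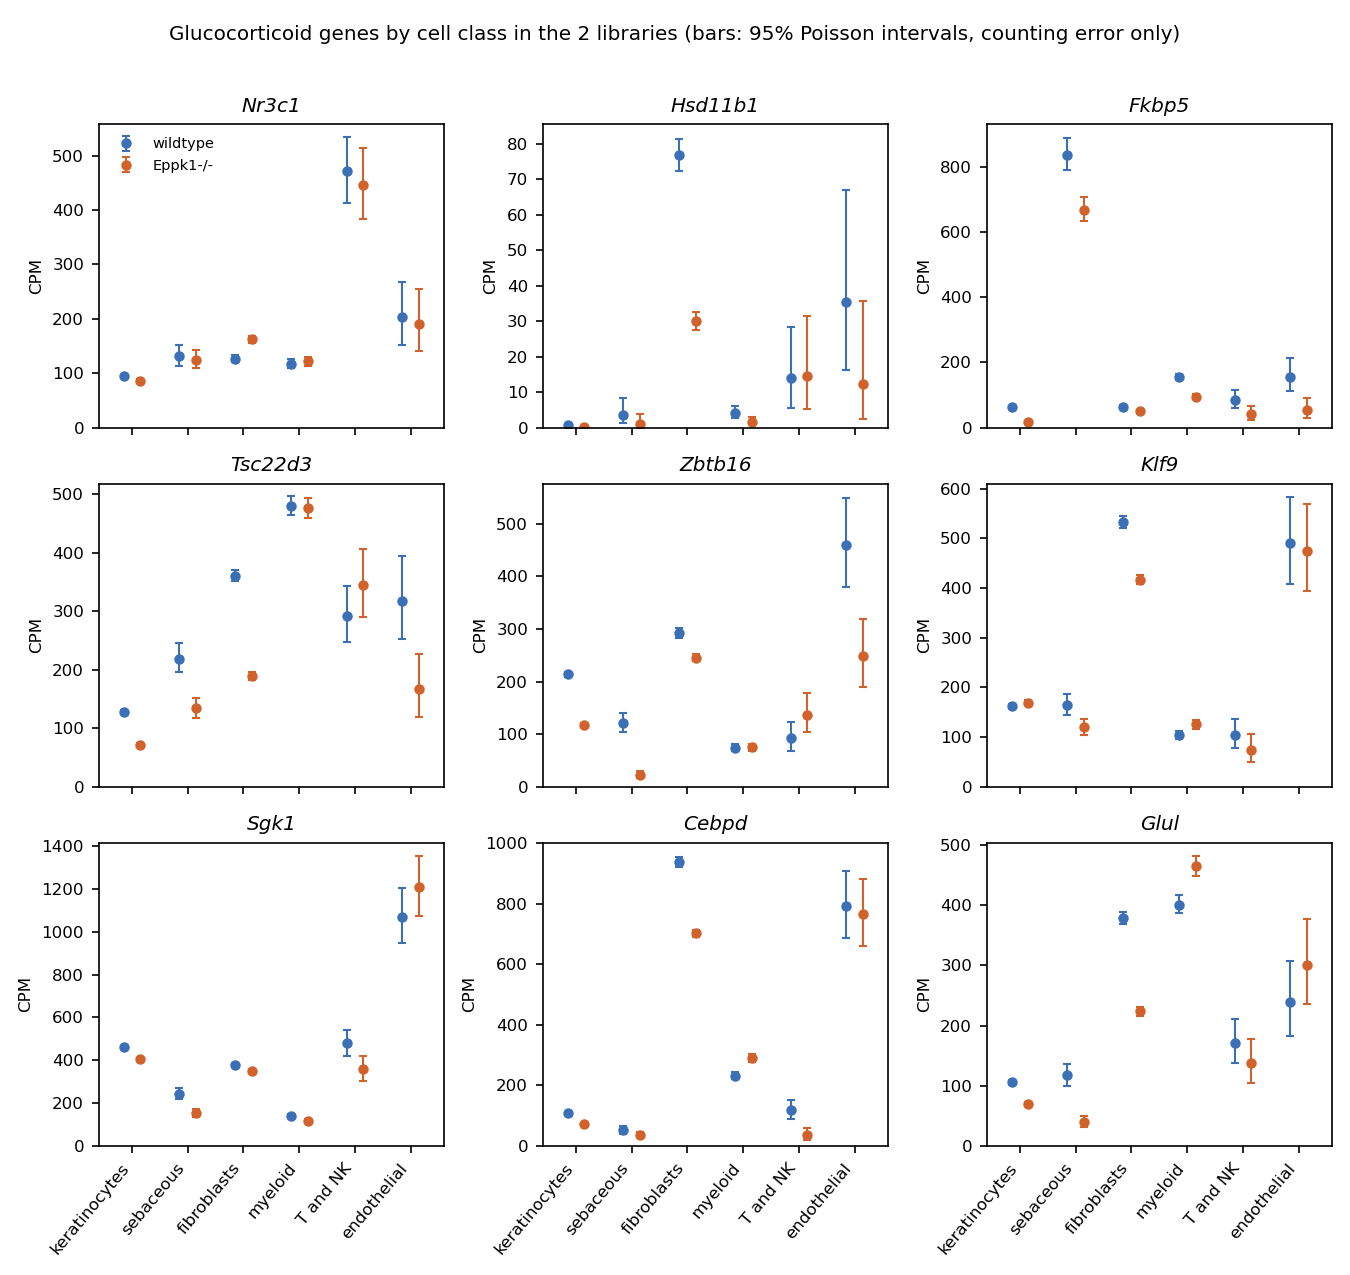
Level (CPM, linear axes from 0, a separate axis per gene) of each of the 9 genes in the 6 cell classes of the wildtype (blue) and the *Eppk1*-/- library (orange); points are library sums and bars 95% Poisson intervals, which cover counting error only. *Fkbp5* is highest in sebaceous cells, *Nr3c1* in T and NK cells and *Hsd11b1* in fibroblasts, and *Tsc22d3* is lower in keratinocytes and fibroblasts but level in myeloid cells.

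*Tsc22d3*, which encodes the leucine zipper protein GILZ, a mediator of the hormone's action on immune cells (chromosome X, 140539528 to 140600659), divided the classes. It was lower in fibroblasts, from 361 CPM (351 to 371) to 189 CPM (183 to 196), a ratio of -0.93. With the fibroblast groups weighted by their wildtype shares that ratio was -0.78. Keratinocytes went from 127 to 70.6 CPM (-0.85), sebaceous cells from 219 to 134 CPM (-0.71) and endothelial cells from 318 to 167 CPM (-0.92). Myeloid cells, where the wildtype level was highest, showed 480 and 476 CPM, a ratio of -0.01 with an interval from -0.08 to 0.06 (0.13 where centred on the median of all genes, -0.20 after thinning). T and NK cells showed 292 and 344 CPM (ratio 0.24, interval -0.10 to 0.58). In the sebaceous cells the ratio was -0.40 when only cells of at least 5000 UMIs were summed.

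All 4 fibroblast groups were called lower for *Tsc22d3*, from -0.68 in *Tnmd* and *Masp1* cells (518 against 323 CPM) to -1.03 in *Angpt4* and *Myoc* cells (397 against 194 CPM). Among keratinocytes the difference varied by cluster. Basal and spinous cells showed -0.22 (-0.46 to 0.02) and -0.34 (-0.54 to -0.14), which is within the size rule. *Krt24* and *Lgr5* cells went from 516 to 223 CPM (-1.21, interval -1.42 to -1.01), *Sostdc1* and *Fst* cells from 229 to 101 CPM (-1.18) and *Sncg* and *Fgf18* cells from 211 to 98.4 CPM (-1.09). Upper follicle cells (-0.56) and proliferating cells (-0.77) lay between. In myeloid clusters the ratios ran from -0.45 (*Il1b* and *Ccr2* cells) to 0.26 (*Ccl8* and *Cd209b* macrophages), and Langerhans cells held 678 and 672 CPM. The *Trdc* T cells showed 177 CPM (128 to 239) and 317 CPM (230 to 425), a ratio of 0.84 from 42 and 44 UMIs.

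*Zbtb16* encodes a zinc finger transcription factor that marks innate-like lymphocytes and is induced by the hormone in many tissues (chromosome 9, 48654297 to 48836222). In keratinocytes it stood at 214 CPM (209 to 218) and 118 CPM (113 to 122), a ratio of -0.86. Of the 9 keratinocyte clusters with 50 UMIs, 8 were called lower, and the exception was the *Sostdc1* and *Fst* cluster (391 against 287 CPM, -0.45; -0.71 after thinning). Some calls lay near the size rule. *Krt75* and *Krt6a* cells stood at -0.52, and at -0.39 with 3 UMIs added to both sums. Upper follicle cells stood at -0.65, and at -0.48 without the highest 5% of doublet scores. The largest differences lay in *Krt24* and *Lgr5* cells (770 against 337 CPM, -1.19) and *Sncg* and *Fgf18* cells (753 against 364 CPM, -1.04), which also held the most of this RNA in the wildtype. Sebaceous cells showed 121 CPM (103 to 141) and 22.1 CPM (15.9 to 30.0), a ratio of -2.44, which was -1.23 after thinning. Among fibroblasts *Tnmd* and *Masp1* cells (-0.92) and *Cpz* and *Pla2g5* cells (-0.79) were called lower, while *Pla1a* and *Efhd1* cells stood at 297 and 310 CPM (0.06). T and NK cells were called higher, at 92.7 CPM (68.1 to 123) and 137 CPM (104 to 178), with overlapping intervals and a ratio of 0.56 that was -0.10 without the droplet barcodes present in both libraries.

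*Glul* encodes glutamine synthetase, which makes glutamine from glutamate and ammonia (chromosome 1, 153899944 to 153909723). In fibroblasts it went from 379 CPM (369 to 389) to 223 CPM (217 to 230), a ratio of -0.76. All 4 groups were called lower within a narrow range, from -0.63 to -0.85. The -0.63 of *Angpt4* and *Myoc* cells was -0.43 after thinning, and reached the size rule in 6 of 8 alternatives. In keratinocytes it went from 106 to 70.3 CPM (-0.59), with 5 of 9 clusters called lower, among them basal (133 against 82.4 CPM, -0.69) and spinous cells (42.8 against 21.8 CPM, -0.97; -0.47 after thinning). Sebaceous cells went from 117 CPM (100 to 137) to 39.4 CPM (30.9 to 49.5), a ratio of -1.57. Myeloid cells went the other way within the size rule, at 401 and 464 CPM (0.21).

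*Cebpd* encodes the delta member of the C/EBP family of leucine zipper transcription factors, which responds to the hormone and to acute inflammation (chromosome 16, 15887286 to 15891031). Fibroblasts held the most, 938 CPM (922 to 954) in wildtype and 702 CPM (690 to 714) in *Eppk1*-/- cells (ratio -0.42). There 3 of the 4 groups were called lower (-0.54 to -0.62) and *Angpt4* and *Myoc* cells were not (754 against 828 CPM, 0.13). In keratinocytes the sum went from 110 to 72.5 CPM (-0.60), but basal (-0.09), spinous (0.05) and *Wfdc21* and *Serpina12* cells (-0.10) showed little. The largest difference in a cluster of over 100 cells per library was in *Krt24* and *Lgr5* cells, which went from 577 CPM (545 to 611) to 215 CPM (188 to 244), a ratio of -1.42. The *Krt75* and *Krt6a* cells showed 569 and 122 CPM, the latter from 6 UMIs.

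Macrophages were the exception for *Cebpd*. *Fcna* and *Lyve1* macrophages held 191 CPM (176 to 208) in wildtype and 383 CPM (351 to 417) in *Eppk1*-/- cells, a ratio of 1.002, the highest of any member in any cluster that passed the minimum. *Il1b* and *Ccr2* cells were called lower (143 against 89.7 CPM, -0.67), and *Ccl8* and *Cd209b* macrophages were level (392 against 395 CPM). The *Fcna* and *Lyve1* cells differed in depth between the libraries, with medians of 11865 and 5714 UMIs, and held 1631 and 474 CPM of fibroblast markers; the part of either in the result was not tested. In the class as a whole the ratio was 0.33, and it was 0.03 without those macrophages.

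*Klf9* and *Sgk1* differed little in keratinocytes as a whole. *Klf9*, a zinc finger factor that slows the division of keratinocytes (chromosome 19, 23141226 to 23168134), stood at 163 CPM (159 to 167) and 169 CPM (164 to 174) in keratinocytes, and none of its 9 keratinocyte clusters was called. In fibroblasts it went from 534 to 417 CPM (-0.36), and *Pla1a* and *Efhd1* cells alone of the 4 groups were called lower (458 against 303 CPM, -0.60). *Sgk1*, a kinase that acts on sodium channels and cell survival (chromosome 10, 21882184 to 21999903), was called lower among the classes in sebaceous cells (243 against 154 CPM, -0.65). That ratio was -0.13 after thinning. *Il1b* and *Ccr2* myeloid cells showed 291 CPM (260 to 324) and 138 CPM (120 to 158), a ratio of -1.07. In keratinocytes *Sgk1* stood at 460 and 405 CPM (-0.18), and its ratio was 0.03 with clusters weighted by their wildtype shares. Its levels differed widely by cluster, from 161 and 152 CPM in basal cells to 2194 and 2283 CPM in *Krt24* and *Lgr5* cells and 4078 and 3374 CPM in *Krt75* and *Krt6a* cells. *Sgk1* was thus near its wildtype level in the *Krt24* and *Lgr5* cells, where *Fkbp5*, *Tsc22d3*, *Zbtb16*, *Cebpd* and *Glul* were all called lower. Of the 10 keratinocyte clusters, 1 was called lower for *Sgk1*, the proliferating cells (ratio -0.59). Upper follicle cells went the other way within the size rule (0.33, interval 0.24 to 0.41).

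**Figure D3:**
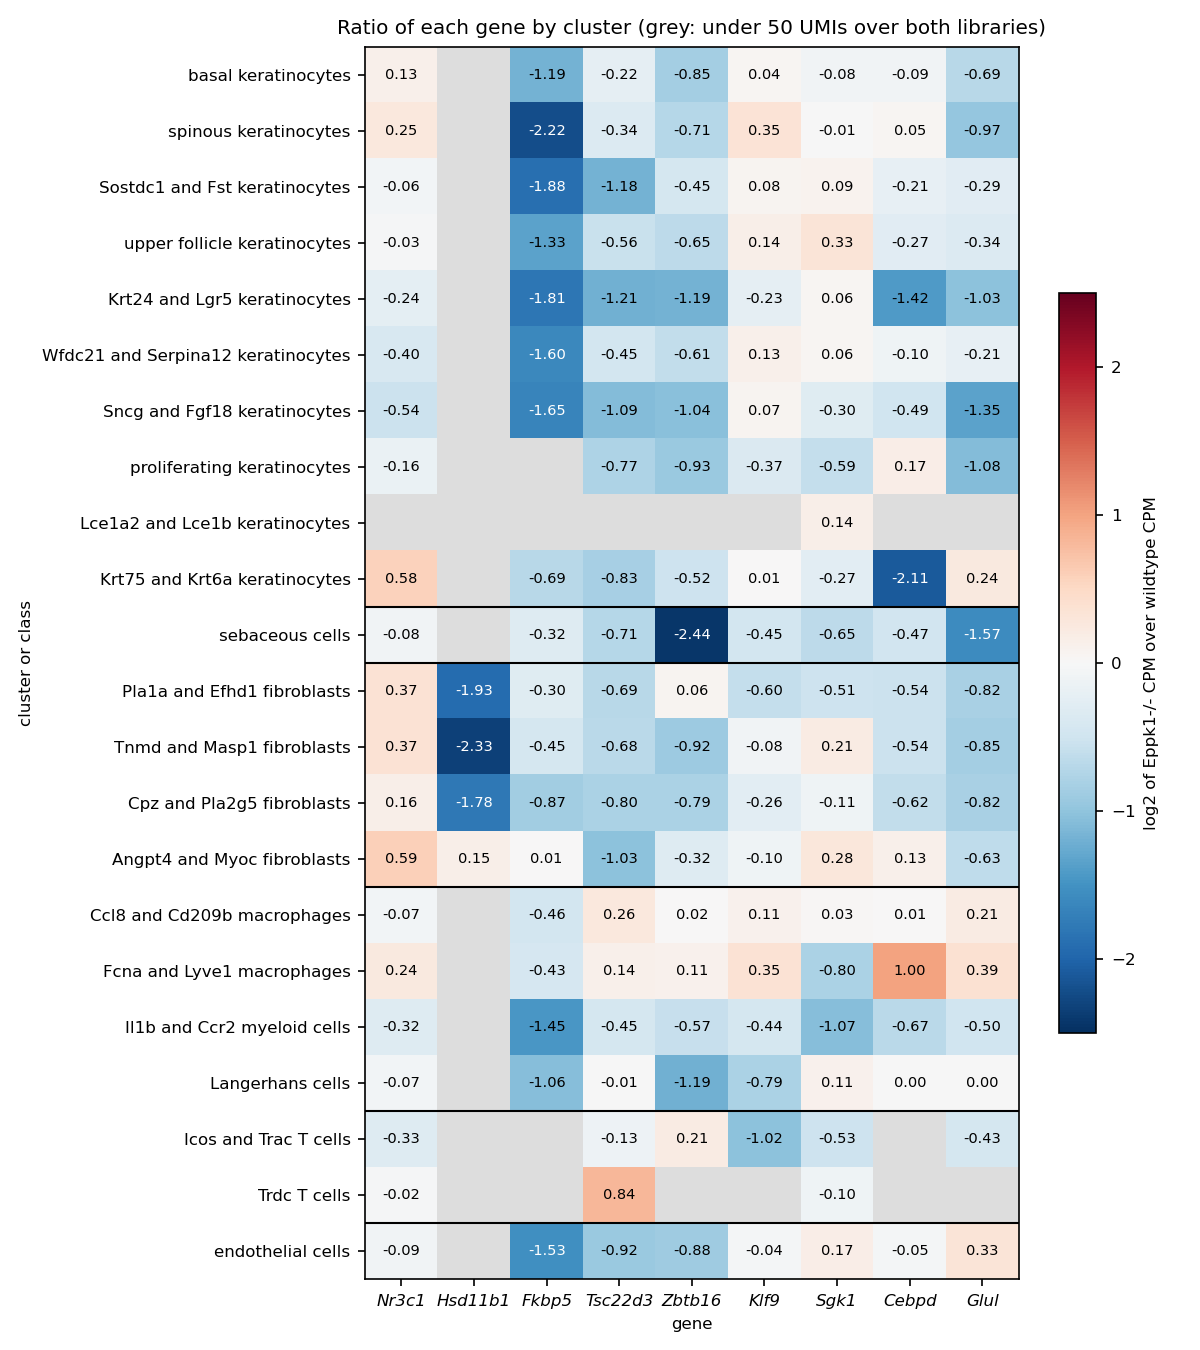
Log2 ratio of *Eppk1*-/- CPM over wildtype CPM for each gene (columns) in each cluster or class (rows), with blue for lower and red for higher values and grey for fewer than 50 UMIs over both libraries. *Fkbp5* is negative in all keratinocyte clusters that have a value, *Glul* and *Tsc22d3* in all 4 fibroblast groups, and *Hsd11b1* in 3 of the 4.

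Counted over the members, 5 of the 8 with 50 UMIs were called lower in keratinocytes (*Fkbp5*, *Tsc22d3*, *Zbtb16*, *Cebpd* and *Glul*), against 4.60% of all 11775 genes with 50 UMIs there. The members' median ratio was -0.59 and that of all genes -0.02. In fibroblasts 3 of 9 were called lower (*Tsc22d3*, *Glul* and *Hsd11b1*), against 6.94% of all genes, with medians of -0.36 and 0.05. In sebaceous cells it was 4 of 8 against 22.9%, with medians of -0.56 and -0.16; relative to the median of all genes *Tsc22d3* stood at -0.54, *Sgk1* at -0.49 and *Fkbp5* at -0.16. In endothelial cells it was 3 of 8 (*Fkbp5*, *Tsc22d3* and *Zbtb16*) against 14.3%; where each cell weighed the same, *Tsc22d3* stood at -0.10 and *Zbtb16* at -0.23. T and NK cells had 2 of 8 called lower against 10.2%, and 1 called higher against 9.41%. In myeloid cells 1 of 8, *Fkbp5*, was called lower, against 15.1%, and the median of all genes was -0.14. Because the members were chosen with these ratios in view, nothing is read from their counts.

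By cluster, the members called lower were 3 of 8 in basal cells (3.76% of all genes), 3 of 8 in spinous cells (3.74%), 2 of 8 in *Wfdc21* and *Serpina12* cells (4.62%), 3 of 8 in upper follicle cells (4.44%) and 2 of 8 in *Sostdc1* and *Fst* cells (5.67%). They were 5 of 8 both in *Krt24* and *Lgr5* cells (6.57%) and in *Sncg* and *Fgf18* cells (8.78%), 4 of 7 in proliferating cells (9.16%) and 4 of 8 in *Krt75* and *Krt6a* cells (18.6%). Among fibroblasts, 6 of 9 were called lower in *Pla1a* and *Efhd1* cells (11.0%), 6 of 9 in *Cpz* and *Pla2g5* cells (9.52%), 5 of 9 in *Tnmd* and *Masp1* cells (7.75%) and 2 of 9 in *Angpt4* and *Myoc* cells (6.86%). Among myeloid cells, 4 of 8 were called lower in *Il1b* and *Ccr2* cells, where 27.1% of all genes were, 3 of 8 in Langerhans cells (8.74%), 1 of 8 in *Fcna* and *Lyve1* macrophages (30.8%) and 0 of 8 in *Ccl8* and *Cd209b* macrophages (13.8%).

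A further 40 genes known to be induced by glucocorticoids were listed apart from the members. This list, like those below, was chosen with earlier results of these data known, so its counts are descriptions too. In keratinocytes 36 had 50 UMIs, of which 6 were called lower, 0 higher and 30 neither, with a list median of -0.12; of all genes there, 4.60% were called lower and 3.05% higher, with a median of -0.02. The 4 lowest were *Txnip*, which restrains thioredoxin and glucose uptake (780 against 354 CPM, ratio -1.14), the stress-induced *Sesn1* (41.9 against 23.9 CPM, -0.81), the receptor for apoptotic cells *Mertk* (18.9 against 11.1 CPM, -0.77) and the phosphoinositide kinase subunit *Pik3r1* (137 against 86.7 CPM, -0.66). The 4 highest were *Gadd45a* (0.22), the decoy receptor *Il1r2* (0.34), the macrophage marker *Cd163* (0.38, from 3.72 and 4.84 CPM) and the lipase inhibitor *Angptl4* (73.0 against 102 CPM, 0.48).

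In fibroblasts 38 of the 40 had 50 UMIs, with 7 called lower, 2 higher and 29 neither, and a median of -0.03, beside 6.94% of all genes lower, 8.46% higher and a median of 0.05. The lowest were *Pdk4*, which shuts off glucose oxidation (56.8 against 24.1 CPM, -1.24), *Hif3a* (-0.91, from 47 and 32 UMIs), the oxysterol hydroxylase *Cyp7b1* (39.1 against 21.0 CPM, -0.90) and *Arrdc3* (139 against 88.4 CPM, -0.66). The highest were *Tns1* (0.40), *Sult1a1* (0.44), *Gadd45a* (63.9 against 92.1 CPM, 0.53) and the cell cycle inhibitor *Cdkn1c* (48.6 against 79.7 CPM, 0.71). In sebaceous cells 15 of 28 listed genes were called lower and 0 higher (median -0.54), where 22.9% and 6.41% of all genes were. In T and NK cells 4 of 23 were lower and 0 higher (10.2% and 9.41% of all genes), in endothelial cells 6 of 28 and 4 (14.3% and 15.5%), and in myeloid cells 4 of 37 and 1 (15.1% and 5.20%).

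**Figure D4:**
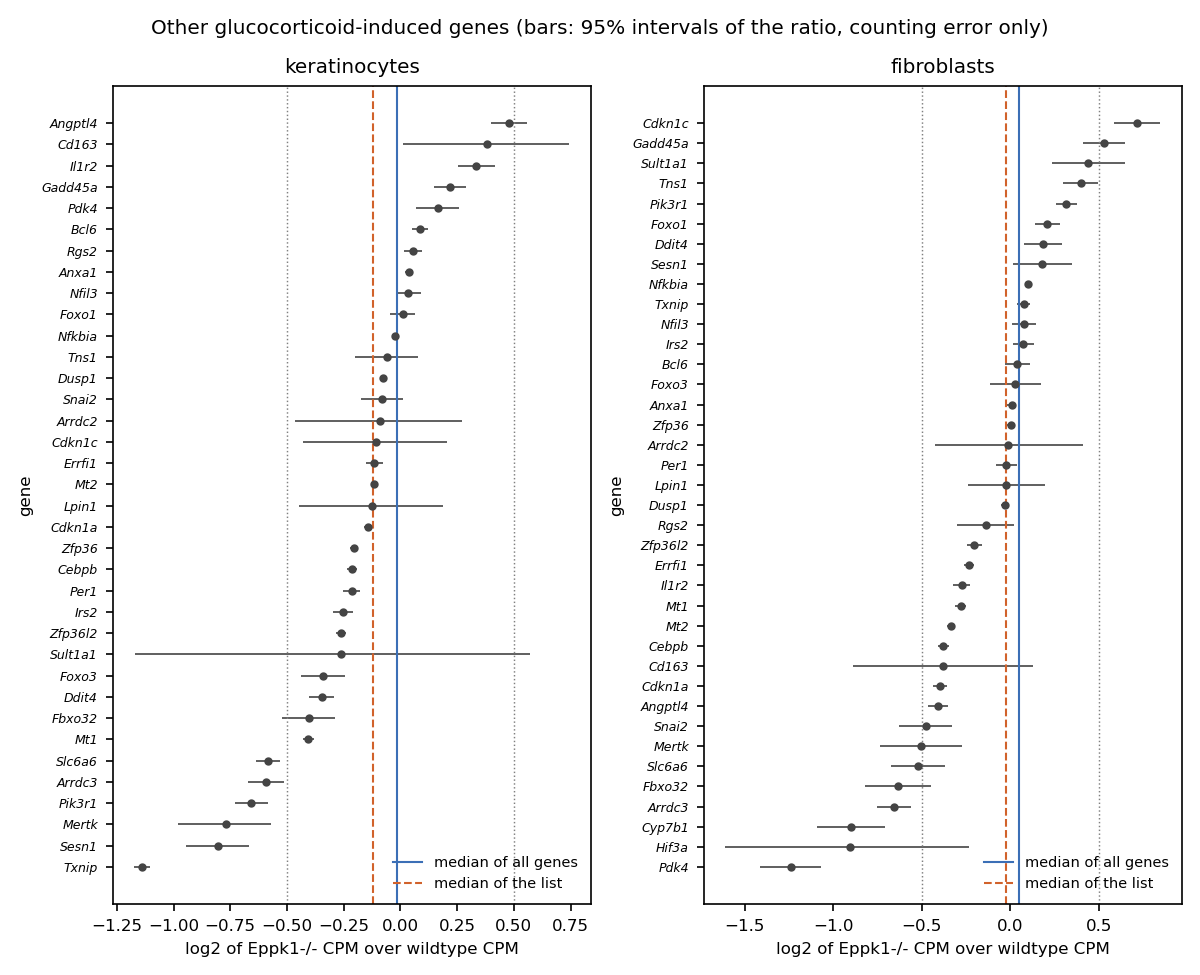
Log2 ratio of *Eppk1*-/- over wildtype CPM (horizontal axis) of the other glucocorticoid-induced genes with 50 UMIs in keratinocytes (36 genes) and fibroblasts (38 genes), sorted by ratio, with 95% counting intervals; the blue line is the median of all genes, the dashed orange line that of the list, and dotted lines mark 0.5 in either direction. Most genes lie between the dotted lines, with *Txnip* lowest in keratinocytes and *Pdk4* lowest in fibroblasts.

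Of the receptor's partners and coregulators, 15 genes were listed. In keratinocytes 1 of 15 was called lower and 0 higher (4.60% and 3.05% of all genes). The lowest was the mineralocorticoid receptor gene *Nr3c2* (2.90 against 1.53 CPM, ratio -0.91, from 106 and 38 UMIs). In fibroblasts 0 were called lower and 1 higher (6.94% and 8.46% of all genes). That 1 was the co-chaperone gene *Fkbp4* (34.3 against 49.1 CPM, 0.52), which was also the highest in keratinocytes (0.17). *Hsp90aa1* was the lowest in fibroblasts (-0.05). Counts lower and higher were 2 and 0 of 14 in sebaceous cells (22.9% and 6.41%) and 0 and 1 of 15 in myeloid cells (15.1% and 5.20%). They were 1 and 1 of 14 in T and NK cells (10.2% and 9.41%) and 2 and 0 of 10 in endothelial cells (14.3% and 15.5%). Of 16 genes of local synthesis and inactivation besides *Hsd11b1*, only 4 in keratinocytes and 5 in fibroblasts reached 50 UMIs. *H6pd*, which supplies the cofactor of the *Hsd11b1* enzyme, stood at 84.0 and 68.0 CPM in fibroblasts (-0.30) and at 3.06 and 3.31 CPM in keratinocytes. The extremes of that list were *Abcb1b* (-0.71) and *Srd5a1* (0.84) in fibroblasts and *Srd5a1* (-0.03) and *Star* (0.39) in keratinocytes.

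Genes that glucocorticoids are known to lower went in both directions. In fibroblasts 6 of 16 were called lower and 2 higher (6.94% and 8.46% of all genes). The listed genes ran from *Il1b* (4.33 against 1.09 CPM, ratio -1.97, from 62 and 20 UMIs) to the alarmin *Il33* (163 against 299 CPM, 0.87). *Il1b* is also a leading gene of a myeloid cluster, and the part of myeloid RNA in its value was not tested. In keratinocytes 3 of 17 were called lower and 1 higher (4.60% and 3.05% of all genes), from the adhesion molecule *Vcam1* (-1.09) to *Mmp9* (0.68, from 34 and 37 UMIs). Elsewhere the counts lower and higher are given with the shares of all genes. They were 5 and 3 of 10 in sebaceous cells (22.9% and 6.41%) and 3 and 1 of 17 in myeloid cells (15.1% and 5.20%). In T and NK cells they were 5 and 2 of 8 (10.2% and 9.41%), and in endothelial cells 1 and 6 of 10 (14.3% and 15.5%). *Col1a1* and *Col3a1* of this list are also among the 7 fibroblast markers. Those markers stood at 6124 CPM (wildtype) and 659 CPM (*Eppk1*-/-) in T and NK cells, and their part in these counts was not tested.

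Other values moved with these results, and their part was not tested. Of 15 clock genes, several of which the hormone also sets, 6 were called lower and 0 higher in fibroblasts (median -0.46). Of all genes there, 6.94% were lower and 8.46% higher, with a median of 0.05. The clock genes ran from the output gene *Dbp* (41.6 against 14.9 CPM, -1.48) to *Npas2* (0.46). In keratinocytes 2 of 15 were called lower (median -0.05, with 4.60% and -0.02 for all genes), from *Dbp* (-0.72) to *Clock* (0.24). Of 15 early genes that tissue digestion induces, 0 were called lower and 0 higher in keratinocytes (4.60% and 3.05% of all genes). They ran from *Junb* at -0.40 to *Fos* at 0.06. In fibroblasts 0 were called lower and 2 higher (6.94% and 8.46% of all genes), from *Fosl1* at -0.44 to *Fos* at 0.62. In sebaceous cells 9 of the 15 were called lower, against 22.9% of all genes, and in myeloid cells 5 of the 15 higher, against 5.20%. *Per1* and *Nfil3* are in both the clock list and the list of induced genes. The 4 listed genes of the Y chromosome had 0 UMIs in either library.

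Markers of other cell types were summed in each class. In keratinocytes the 10 sebaceous markers stood at 440 and 400 CPM and the 7 fibroblast markers at 530 and 595 CPM, log2 ratios of -0.14 and 0.17, beside -1.78 for *Fkbp5*. In fibroblasts the 10 keratinocyte markers stood at 2135 and 1818 CPM and the 10 macrophage markers at 62.5 and 57.7 CPM. The 6 adipocyte markers were lower in fibroblasts, at 51.2 and 21.3 CPM (log2 ratio -1.26), beside -1.36 for *Hsd11b1* and -1.24 for *Pdk4* there, and their part in these was not tested. By group they stood at 10.7 and 3.11 CPM in *Pla1a* and *Efhd1* cells (-1.77), 128 and 54.1 CPM in *Tnmd* and *Masp1* cells (-1.24), 55.8 and 47.8 CPM in *Cpz* and *Pla2g5* cells (-0.22) and 37.2 and 12.0 CPM in *Angpt4* and *Myoc* cells (-1.62), the group where *Hsd11b1* was at 0.15. In T and NK cells all 7 fibroblast markers had UMIs in both libraries, but at 6124 CPM (wildtype) against 659 CPM (*Eppk1*-/-), most of it in the *Icos* and *Trac* cells (11102 and 697 CPM). The *Cebpd* value of T and NK cells, 118 against 36.1 CPM (ratio -1.68, from 60 and 15 UMIs), stands beside that difference; with no cell filter the ratio was -0.33. In the *Trdc* cells, where fibroblast markers stood at 456 and 583 CPM, *Cebpd* had 26 and 5 UMIs, too few for a ratio. Endothelial cells held 7985 and 3755 CPM of keratinocyte markers and 1188 and 240 CPM of the 6 adipocyte markers, but 1294 and 3207 CPM of the 6 markers of smooth muscle and pericytes (log2 ratio 1.31). These differences stand beside the *Fkbp5*, *Tsc22d3* and *Zbtb16* values of 106 and 60 cells, and their part was not tested. Sebaceous cells differed in depth, with medians of 6151 and 12888 UMIs per cell. A cluster of 55 *Eppk1*-/- cells and 0 wildtype cells (median 1880 UMIs), in which 7 of the 10 sebaceous markers were found, stayed unnamed and outside the class. With it the sebaceous ratios were -0.40 for *Fkbp5*, -0.76 for *Tsc22d3*, -2.33 for *Zbtb16*, -0.55 for *Sgk1* and -1.58 for *Glul*, and 4 members were again called lower.

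The genes whose levels over the 9 named classes of the wildtype library most resembled each member were found by Pearson's r of log2(CPM + 1), among 2184 genes with at least 50 UMIs in at least 0.5 of the classes. These classes are the 6 above with mast cells and basophils (53 cells), melanocytes (27) and skeletal muscle (30). The classes share 1 library, and the values are descriptions. No minimum was set for the members themselves. *Hsd11b1* had 1099 UMIs in fibroblasts and 29 or fewer in each other class, so its r rests largely on values near 0. *Fkbp5* had 43 UMIs or fewer in T and NK, endothelial, mast, melanocyte and muscle cells. *Fkbp5* was most like *Plin2*, a lipid droplet coat protein (r = 0.92), and *Bcap31* (0.91). *Hsd11b1* was most like *Igfbp5* (0.92) and *Thy1* (0.89), *Cebpd* like *Gpx3* (0.93) and *Rnase4* (0.92), and *Zbtb16* like *Il6st* (0.97) and *Ltbp4* (0.93). *Tsc22d3* was most like *Zeb2* (0.93) and *Plekho2* (0.92), *Glul* like *Zeb2* (0.93) and *Vim* (0.87), and *Klf9* like *Timp3* (0.92) and *Serpinh1* (0.91). *Sgk1* was most like *Nfat5* (0.93) and *Srsf10* (0.90), and *Nr3c1* like *Prkar1a* (0.96) and *Fosl2* (0.94).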

How the data were processed

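The authors deposited UMI counts per gene and cell for each library, made with Cell Ranger 8.0.1 on mm10 (GRCm38) and not normalized. Only cells called by Cell Ranger are in these files. Of 9179 and 8811 barcodes, those between 200 and 45000 UMIs, between 100 and 7500 genes and below or at 10% of mitochondrial reads entered, as the study's methods state, and mitochondrial genes were removed. R 4.3.3 and Seurat 5.3.0 were used for log-normalization to 10000, 2000 variable features without the listed genes, 50 principal components, RPCA integration and clustering at a resolution of 0.5; SCTransform, which the study used, was not. A cluster was named where at least 3 markers were found in 25% of its cells; this scoring rule was set after the clusters were seen. No name was given where 1 library supplied over 95% of a cluster.

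UMIs were summed per class and library in Python 3.11.15 (scipy 1.17.1, numpy 2.4.6, pandas 2.3.3), and 0.5 UMIs were added to both sums for a ratio. CPM intervals are exact Poisson intervals, ratio intervals exact conditional binomial intervals and share intervals Clopper-Pearson intervals, all at 95%. Keratinocytes held 36574393 and 24807417 UMIs, fibroblasts 14329508 and 18377251, and endothelial cells 255117 and 246057, so that counting error was small in the former classes and wide in the latter. The code for ratios and intervals was run on simulated Poisson counts, the model that the intervals assume. Those counts hold no spread between cells or mice, so the run checks the arithmetic only. The members and all lists were chosen with earlier results of these data known. Genes named were the members in every class, the 2 most alike to each, the 4 lowest and 4 highest of the further induced genes in keratinocytes and fibroblasts, and the lowest and highest of each other list there; *H6pd*, named for its role, and those at clusters' names are outside this rule. Scrublet (scanpy 1.11.5, expected rate 0.06) marked 0 wildtype and 204 *Eppk1*-/- cells, so its threshold had not worked in the wildtype, and cells with the highest 5% of scores were left out as an alternative in both. Of the droplet barcodes, 1211 occurred in both libraries, which were pooled before droplets were formed. Motifs and coordinates came from RefSeq and GENCODE M21 on GRCm38. edgeR 4.0.16 gave TMM scaling.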

Additional observations from a re-analysis of the deposited data

How the results depend on the processing

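No paired analysis was possible because each genotype has 1 library, and for the same reason no replicate could be left out. Of 102 recomputed counts of lower genes, 94 stayed within 1.5 times of the reported count. All 14 alternatives for keratinocytes gave 5 members called lower, and the 12 for fibroblasts gave 3 or 4. In sebaceous cells the count was 2 of the reported 4 with TMM scaling. In myeloid cells it was 0 instead of 1 after thinning to 2000 UMIs and 2 where each cell weighs the same. In T and NK cells it was 0 instead of 2 without the highest 5% of doublet scores, where *Fkbp5* and *Cebpd* had too few UMIs for a ratio. After thinning both again lacked a ratio, and the 1 called lower was *Sgk1* (-0.96). With no cell filter the count was 1, since *Cebpd* stood at -0.33. In endothelial cells it was 0 instead of 3 after thinning, where none of those 3 had enough UMIs for a ratio. The other induced genes lower in fibroblasts numbered 4 instead of 7 with no cell filter. Thinning leaves fewer UMIs by construction, and also fewer cells, such as 34 of 106 and 30 of 60 endothelial cells. Apart from this and the missing ratios in T and NK cells and in endothelial cells, the cause was not tested. Of 1418 member ratios, 1286 stayed within their counting interval and 54 changed sign under some setting. Of these 54, 52 had a reported ratio under 0.5 in size. The other 2, both called and both without the droplet barcodes of both libraries, were *Zbtb16* in T and NK cells (-0.0974) and *Nr3c1* in *Krt75* and *Krt6a* keratinocytes (-0.0509). Without integration no endothelial cluster was named, so that this alternative gave no value. Alternatives that left out clusters, merged sebaceous cells with keratinocytes, added the unnamed cluster or kept deep sebaceous cells were chosen after seeing the data. Depth limits T, NK and endothelial cells most, and the missing spread between mice limits all results.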
